A study of Rattus norvegicus with 18 samples.

Results

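The genes described here encode the protein components of the cytosolic ribosome. They were picked by name: every array feature whose gene name, or whose current rat symbol, starts with Rpl or Rps and a digit, or is Rplp0, Rplp1, Rplp2 or Rpsa, with the Rps6k kinases left out. The name rule itself used no measured value, but it was set with earlier results of these data known. It gave 82 genes of the 15502 with a RefSeq name on the array, 49 with large-subunit and 33 with small-subunit names, and 75 of them could be tested. A gene was read from its probe of highest mean signal.

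The study examined the cortex of male Crl:CD(SD)BR rats of 250 to 280 g after middle cerebral artery occlusion (MCAO), a model of ischemic stroke in which the vessel that feeds much of the cortex is blocked. Erythropoietin (EPO), the growth factor of the red cell lineage, was the treatment, at a dose the labels used here do not state. There were 6 groups of 3 arrays: sham operation, ischemia with saline and ischemia with EPO, each sampled at 2 h and at 6 h. The labels do not say that each array holds a separate rat, so p-values measure only the spread between these samples, which may be technical. All groups were of the same strain and sex, and the sham groups had surgery without treatment.

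Ribosomal proteins assemble with ribosomal RNA in the nucleolus into a large and a small subunit, which join on mRNA to translate it. Their mRNAs are among the most abundant of a cell, and in vertebrates they typically begin with a C followed by a stretch of pyrimidines, the terminal oligopyrimidine tract, through which mTORC1 signalling adjusts their translation. An array measures the amount of these mRNAs, not how much protein is made from them.

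Because many of these mRNAs are known to begin with such a tract, the annotated start sites of some genes named in the results are shown first. Each line gives 8 bases before the start and 20 from it, 5′ to 3′ on the strand of the gene, from RefSeq (build GRCr8). Capitals mark an unbroken run of C and T that begins at the annotated first base.
Rps27: ctttcgctCCTTTCCggcggtgacgacc
Rplp0: ccgcacttCTCTCgccaggcgtcctcat
Rplp1: catgtgatCCTTTCCTCagctgccgcca
Rpl19: agcaagctCTTTCCTTTCgctgctgcgt
Rps18: cttccgctCTCTCTTCCacaggaggcct
Rpl22: gcccccctCCCTTTCTgcctcctctgcc
Rpl13: gtgcccgaTCCTTTCCgctcggccgttc
Rps28: ctgctcacgtgactcctctccgctagat
Rpl41: cggaagtgacgacaccaagcacgccatt
The first 6 carry a run that opens with C, Rpl13 carries one that opens with T, and Rps28 and Rpl41 have none at the annotated base. Other named genes, with and without such a run, are not shown, so these lines do not give its share. The windows lie at chr2:177964587-177964614 on the minus strand for Rps27, chr12:46718371-46718398 on the minus strand for Rplp0, chr8:71290853-71290880 on the minus strand for Rplp1 and chr10:83519056-83519083 on the plus strand for Rpl19. That of Rps18 lies at chr20:4933737-4933764 on the plus strand, that of Rpl22 at chr5:168117953-168117980 on the plus strand and that of Rpl13 at chr19:68062506-68062533 on the plus strand. Those of Rps28 and Rpl41 lie at chr7:15311314-15311341 and chr7:1563478-1563505, both on the minus strand.

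Of the 82 genes, 64 had an annotated start in the RefSeq table. A run of at least 5 C or T that opens with C at the first annotated base was present in 24 of the 64 (37.5%), against 2.63% of all 33469 starts in the table. With a T allowed as the first letter, 33 of the 64 (51.6%) carried a run, against 4.75% of all starts. When the run could begin up to 10 bases to either side, the shares were 73.4% and 28.9%. The search read the strand of the gene only, and a match is a description of these letters, not of a site in use.

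Signals are given throughout on the log2 scale, after subtraction of each array's own 75th percentile. The percentage of probes well above background ran from 61.5% to 80.6% over the 18 arrays. Probe-to-probe brightness depends on the probe, so the levels of different genes are not compared. In 6 arrays (saline at 2 h replicate 1, EPO at 2 h replicate 1, sham at 6 h replicate 1, saline at 6 h replicates 1 and 3, EPO at 6 h replicate 3) the response to the spike-in control RNAs was steeper, with a slope above 0.9. The first sham array at 2 h had the lowest slope of all, 0.789.

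Ribosomal protein probes were bright and repeatable. Of the 82 genes, 81 were above background on all 18 arrays and none was saturated. For 58 genes the scanner's low-gain reading supplied the signal on every array, and this was so for 3.88% of all probes. The median SD between arrays of 1 group was 0.081 for the 75 tested genes, from 0.043 for Rps23 to 0.627 for Rps26, against 0.165 for all 28634 probes tested. The median standard error of a difference between groups was accordingly 0.072 for ribosomal protein genes and 0.133 for all probes.

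The median of the 75 genes was taken on each array as a summary of the group. It was 4.67, 4.91 and 4.97 on the sham arrays at 2 h, 5.02, 4.95 and 4.98 with saline at 2 h, and 5.05, 5.02 and 4.87 with EPO at 2 h. At 6 h it was 4.85, 4.80 and 4.86 in sham, 4.94, 4.99 and 4.87 with saline, and 4.84, 4.97 and 5.02 with EPO. The sham array of lowest spike-in slope was also the lowest here, and without it 64 of the 75 estimated differences between saline and sham at 2 h lay above 0. The saline arrays at 6 h all lay above the sham arrays at 6 h, by as little as the step from 4.86 to 4.87, and at 2 h the saline arrays overlapped the sham arrays.

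**Figure D1:**
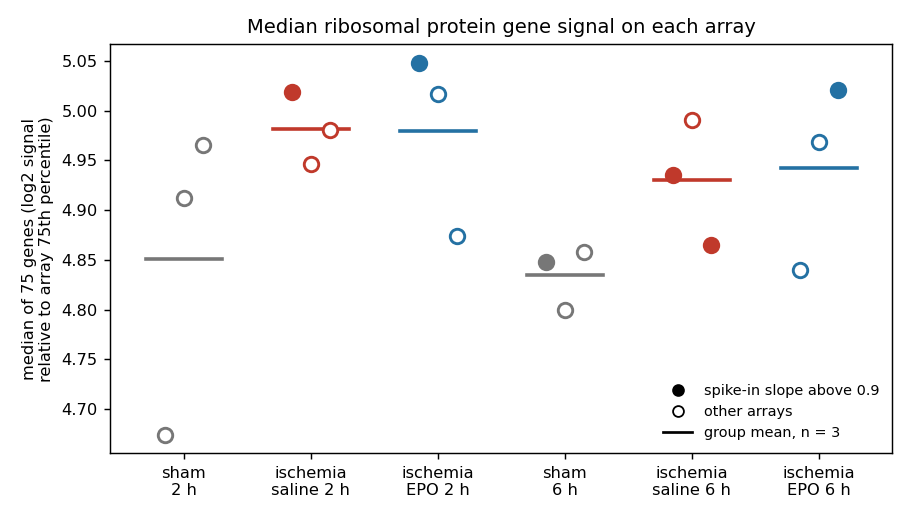
Each point is 1 array: the median over 75 ribosomal protein genes of the log2 signal relative to the array's 75th percentile (y axis), by group (x axis). Bars are group means of 3 arrays, filled points are the 6 arrays of spike-in slope above 0.9, and all arrays but the first sham array at 2 h lie between 4.80 and 5.05.

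At 6 h of ischemia with saline, the abundance of ribosomal protein mRNAs moved little: no gene of the 75 passed limma at an adjusted p of 0.05, while 11.0% of all probes did. At an unadjusted p under 0.05 there were 3 genes (Rps28, Rpl41 and Rplp0), 4% of those tested, against 23.9% of all probes. This count depended on the scaling: it was 9 under quantile normalization, 7 in the authors' unscaled values and with slide as a random block, and 18 with the percentile taken over probes, and it ran from 1 to 18 over all settings. Estimated differences were nevertheless mostly on 1 side: 69 of the 75 were above 0 and 6 below, with a median of 0.08 on the log2 scale and a range from −0.05 to 0.24. Of all probes 30.9% were above 0, with a median of −0.13, so ribosomal protein genes sat to the right of the array as a whole. No gene differed by more than 1.2-fold, a size that 40.3% of all probes exceeded. These are values from whole cortex, in which a changed share of a cell type and changed RNA per cell cannot be told apart.

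The precision sets a bound on what could have been missed at 6 h. The 95% interval of the difference lay within 1.5-fold in either direction for 73 of the 75 genes, and within 1.2-fold for 49. The exceptions at 1.5-fold were Rps26 and Rpl10l, whose arrays scattered most. In 24 of the 75 genes (32.0%) the saline arrays did not overlap the sham arrays, always with saline higher. Such a separation was seen for 10.9% of all probes with saline higher and for 32.3% in either direction.

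Rps28, a small-subunit protein mutated in some families with Diamond-Blackfan anaemia, had the smallest p at 6 h. Its signal was 4.93, 4.97 and 4.90 on the sham arrays, 5.08, 5.17 and 5.14 with saline, and 5.03, 5.04 and 5.20 with EPO. All saline and EPO arrays lay above all sham arrays of that time. The difference between saline and sham was 0.19 ± 0.06 (SE, 95% interval 0.06 to 0.33, limma adjusted p = 0.0726).

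Rpl41, the shortest of the ribosomal proteins, measured 6.08, 6.11 and 6.18 in sham at 6 h and 6.29, 6.31 and 6.27 with saline. Its groups did not overlap either, and the difference was 0.17 ± 0.07 (adjusted p = 0.126). Rplp0, the base of the ribosomal stalk, measured 1.74, 1.63 and 1.503 in sham at 6 h and 1.85, 1.84 and 1.89 with saline. The difference was 0.24 ± 0.10 (interval 0.03 to 0.44, adjusted p = 0.143), the widest of the 75 at that time, and the sham arrays of this gene were spread over more of the scale than the saline arrays.

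**Figure D2:**
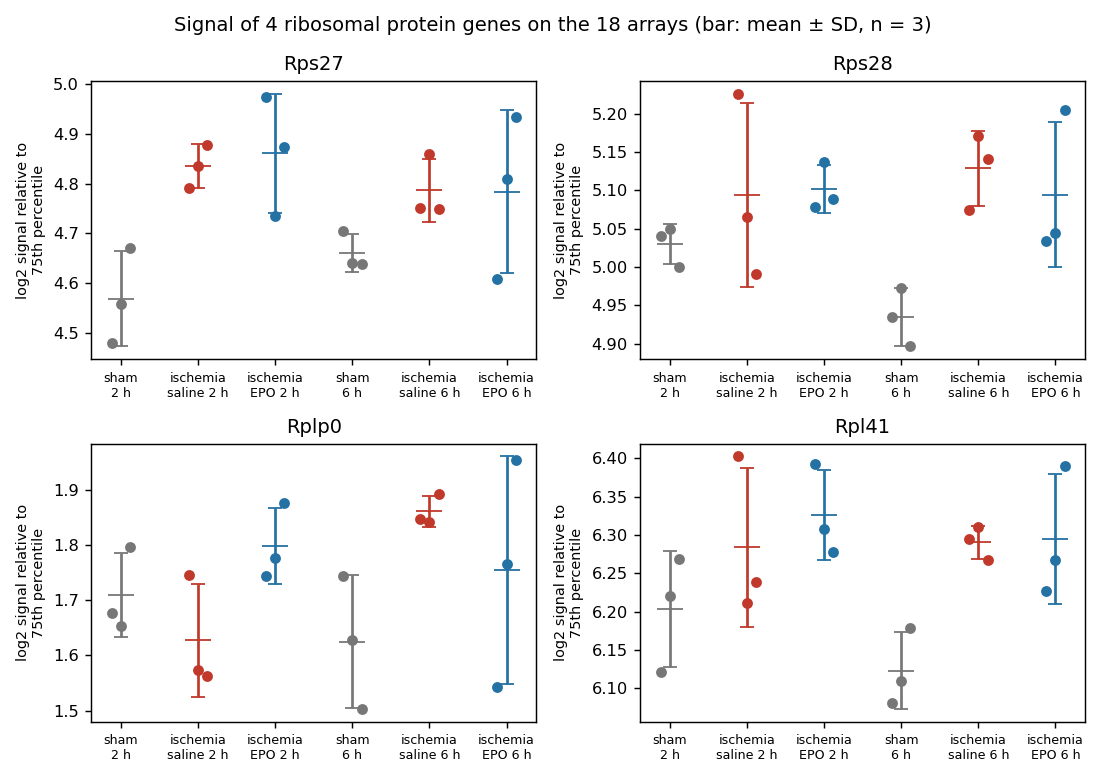
Each point is 1 array: log2 signal relative to the array's 75th percentile (y axis, not starting at 0 and scaled per panel) for Rps27, Rps28, Rplp0 and Rpl41, in the 6 groups (x axis), with the mean ± SD of 3 arrays. Rps27 separates sham from saline at 2 h, and Rps28, Rplp0 and Rpl41 do so at 6 h.

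At 2 h of ischemia the picture was of the same small size. None of the 75 genes passed the threshold, against 1.24% of all probes, and 3 had an unadjusted p under 0.05 (Rps27, Rpl15 and Rpl13) in the limma fit, 4% against 11.6%, a count that ran from 0 to 13 over all settings. Of all probes 36.1% had an estimate above 0. For the 75 genes again 69 estimates lay above 0 and 6 below (Rpl3, Rpl3l, Rplp0, Rps24, Rps4x and Rpsa). The median of the 75 was 0.09, with a range from −0.08 to 0.27. Under quantile normalization 51 lay above 0 and 24 below, and in the authors' unscaled values 48 and 27, with medians of 0.02 and 0.01. The sham arrays did not overlap the saline arrays for 18 genes (24.0%), all higher with saline, against 6.67% of all probes in that direction and 15.7% in either.

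Rps27, a zinc-finger protein of the small subunit, had the smallest p at 2 h and the only estimate above 1.2-fold. It measured 4.48, 4.56 and 4.67 in sham and 4.79, 4.84 and 4.88 with saline, without overlap. The difference was 0.27 ± 0.08 (interval 0.08 to 0.45, adjusted p = 0.184). At 6 h the same gene measured 4.71, 4.64 and 4.64 in sham and 4.75, 4.86 and 4.75 with saline, a difference of 0.13.

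Rpl15, a core protein of the large subunit, measured 4.54, 4.52 and 4.55 in sham at 2 h and 4.71, 4.58 and 4.69 with saline, a difference of 0.12 ± 0.05 (adjusted p = 0.370). Rpl13, also of the large subunit, measured 5.82, 5.98 and 5.98 in sham and 6.03, 6.06 and 6.05 with saline, a difference of 0.12 ± 0.05 (adjusted p = 0.390). For both genes every saline array was above every sham array, and neither passed once p was adjusted over all probes.

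**Figure D3:**
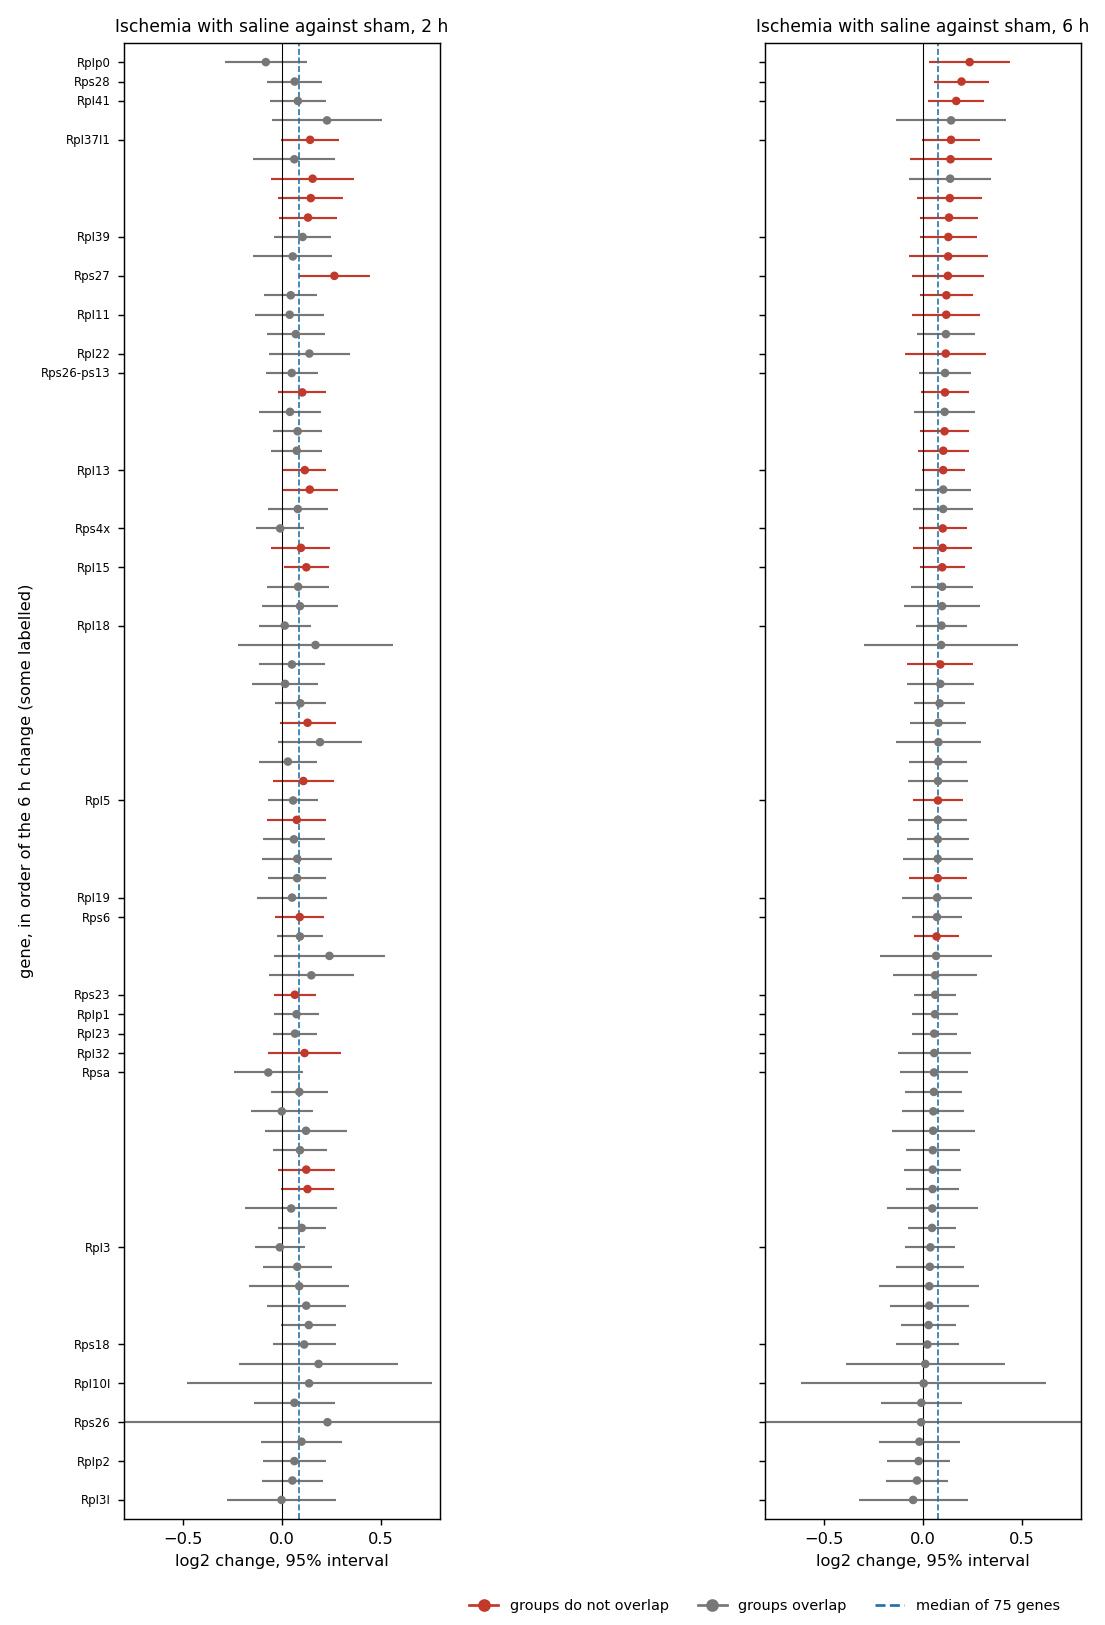
Log2 difference between saline-treated ischemia and sham (x axis, dot) with its 95% interval (line) for each of the 75 tested genes (y axis, ordered by the 6 h estimate, with a name for some of the genes), at 2 h (left) and 6 h (right). Red marks genes whose 3 saline arrays do not overlap the 3 sham arrays (18 at 2 h and 24 at 6 h), the dashed line is the median of the 75 genes, and the interval of Rps26 runs past both edges.

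By role in the ribosome, the stalk proteins Rplp0, Rplp1 and Rplp2 recruit elongation factors to the large subunit. Rplp1 measured 7.15, 7.17 and 7.23 in sham at 2 h and 7.36, 7.22 and 7.20 with saline, with overlap and a difference of 0.07. At 6 h its difference was 0.06, that of Rplp2 −0.02 and that of Rplp0 the 0.24 given above. At 2 h Rplp0 stood at 1.68, 1.65 and 1.80 in sham against 1.75, 1.57 and 1.56 with saline, a difference of −0.08 ± 0.10. The change of that difference between 2 and 6 h was 0.32 ± 0.14 (limma interaction, adjusted p = 0.351), which did not pass.

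Rpl5 and Rpl11 form with 5S ribosomal RNA a particle that, when ribosome assembly fails, binds the ubiquitin ligase Mdm2 and stabilises p53. Rpl5 measured 4.89, 4.86 and 4.98 in sham at 6 h and 4.98, 4.99 and 4.98 with saline, a difference of 0.08. Rpl11 measured 5.42, 5.42 and 5.41 in sham at 6 h and 5.54, 5.61 and 5.45 with saline, a difference of 0.12 (interval −0.06 to 0.29). In both genes the saline arrays lay above the sham arrays at 6 h, for Rpl5 by the thinnest of margins, and at 2 h the differences were 0.06 and 0.04, with overlap.

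On the small subunit, Rps6 is the protein phosphorylated by the S6 kinases and is widely used as a readout of mTORC1 activity. Its mRNA measured 6.69, 6.75 and 6.80 in sham and 6.87, 6.84 and 6.80 with saline at 2 h, then 6.68, 6.62 and 6.70 in sham and 6.77, 6.77 and 6.67 with saline at 6 h. The differences were 0.09 and 0.07, each with a standard error of 0.06. Rpsa, which is also known as the laminin receptor, differed by −0.07 at 2 h and 0.06 at 6 h. Rps4x, encoded on the X chromosome, differed by −0.01 and 0.10.

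Several of these mRNAs serve as reference genes in quantitative PCR, where a stable level is assumed. Among them Rpl19, a large-subunit protein, differed between saline and sham by 0.05 at 2 h and 0.07 at 6 h, Rpl32 by 0.11 and 0.06, and Rps18 by 0.11 and 0.02. Rplp0, with differences of −0.08 and 0.24, had the widest pair of estimates in that list of 5. Rpl13a lost its sham array at 6 h replicate 2 to an outlier mark of the scanner software. In the fit on the arrays left it differed by 0.12 ± 0.08 at 2 h and 0.06 ± 0.09 at 6 h, with adjusted p of 0.584 and 0.712. None of the 5 passed in limma at either time, and Rplp0 at 6 h had the only unadjusted p under 0.05.

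Paralogs can give a cell type a ribosome of slightly different make-up. Rpl3l, a muscle paralog of Rpl3, measured −1.496, −1.21 and −1.46 in sham at 2 h and −1.56, −1.27 and −1.34 with saline, with full overlap and a difference of less than 0.01 in size. At 6 h its difference was −0.05, and that of Rpl3 itself was 0.04. Rpl10l, the testis paralog of Rpl10, scattered from −0.94 to 0.32 over the arrays at 2 h, so that its difference of 0.14 carried a standard error of 0.29. Rpl22, an RNA-binding protein of the large subunit, differed by 0.14 at 2 h and 0.11 at 6 h. By this naming rule the paralogs Rps27l, Rpl22l1 and Rpl39l had no feature on the array.

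Some probes read less cleanly. The probe of Rps26 ran from −1.15 to 0.84 over the 18 arrays, the widest scatter of any tested member. For the 23 genes with several tested probes, the median gap between the highest and lowest estimate was 0.04 at 2 h and 0.05 at 6 h. Ribosomal protein genes have many near-identical processed copies in the genome, and which copy a probe read is uncertain. This applies above all to the entries named Rpl15l2, Rpl36al1, Rpl37, Rpl37l1, Rpl37al2, Rps17l1 and Rps26-ps13. The files use the name Rpl37 for the probes of both Rpl37 and Rpl37l1. The probe given here as Rpl37 had the lowest mean signal of the tested members, −1.70.

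Among the 7 untested genes are Rpl13a, Rpl21, Rpl35, Rpl37a and Rps19. Rpl37a was above background on 7 of the 18 arrays. The other 6 had an outlier mark on 1 array, which befell 7.32% of the 82 genes and 0.841% of all probes. On the arrays left, Rpl21 differed by 0.15 ± 0.06 between saline and sham at 6 h (adjusted p = 0.120), and Rpl35 by 0.17 at 2 h (adjusted p = 0.244). No gene of these 6 passed in either comparison. Rps19, the gene most often mutated in Diamond-Blackfan anaemia, is among them. Of the 18 ribosomal protein genes listed for that anaemia 16 were tested, and 0 passed at 6 h, with 1 (Rps28) at an unadjusted p under 0.05 in limma and a median of 0.08, the same as for all 75.

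With EPO against saline in ischemia, the question was whether treatment altered the response. At 2 h no ribosomal protein gene passed limma, and no probe of the array did (0% of all probes). An unadjusted p under 0.05 was seen for 1 gene, Rpl39, and for 1.33% of all probes. An estimate above 0 was seen for 50.8% of all probes. Those of the 75 genes fell on both sides, 32 above 0 and 43 below. Their median was −0.01, with a range from −0.28 (Rps26) to 0.17 (Rplp0). The EPO and saline arrays did not overlap for 4 genes (Rpl23, Rpl30, Rpl39 and Rps2, all lower with EPO), 5.33%, against 1.77% of all probes in that direction and 4.20% in either. The split was 14 above and 61 below in the authors' unscaled values and 22 and 53 with slide as a fixed block. Without the saline array at 2 h replicate 1 it was 47 and 28, and without EPO at 2 h replicate 3 it was 39 and 36.

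Rpl39, a small protein that lines the exit tunnel, measured 4.66, 4.55 and 4.54 with saline at 2 h and 4.50, 4.41 and 4.41 with EPO. The difference was −0.15 ± 0.07 (interval −0.29 to 0.00, adjusted p = 1.0), and the sham arrays, at 4.60, 4.39 and 4.46, spanned most of both ranges. Rpl23, which binds Mdm2 as Rpl5 and Rpl11 do, differed by −0.08 and Rplp0 by 0.17 (adjusted p = 1.0 for each).

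At 6 h no gene passed between EPO and saline, and no probe did (0% of all probes). At an unadjusted p under 0.05 there were 0 genes and 4.13% of all probes. Of all probes 62.2% had an estimate above 0. Of the 75 estimates 25 lay above 0 and 50 below, with a median of −0.01. This split turned with single arrays and with the scaling. Without EPO at 6 h replicate 1 it was 59 above and 16 below, without EPO at 6 h replicate 3 it was 8 and 67, and without saline at 6 h replicate 2 it was 45 and 30. Quantile normalization gave 39 above and 36 below and the authors' unscaled values 4 and 71. Without the 6 arrays of steep spike-in slope it was 2 and 73, with a median of −0.10, from a fit in which saline at 6 h kept 1 array that was assumed to vary like the other groups.

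The 2 groups did not overlap at 6 h for 1 gene, Rpl18, lower with EPO, 1.33% of the 75, against 3.48% of all probes in that direction and 8.69% in either. Rpl18, of the large subunit, measured 3.14, 3.13 and 3.04 with saline and 3.02, 3.01 and 3.03 with EPO, a difference of −0.08 ± 0.06 (adjusted p = 0.778). The next smallest p belonged to Rps26-ps13, a copy of Rps26, at −0.08 ± 0.06, and Rpl3l, at 0.14 ± 0.13 (adjusted p = 0.778 for each). The 95% interval of the difference between EPO and saline lay within 1.2-fold for 58 genes at 2 h and 62 genes at 6 h, and within 1.5-fold for 73 at each time. A difference of those sizes in these genes was therefore outside the interval of this fit, and smaller ones could not be told from 0 with 3 arrays a group.

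**Figure D4:**
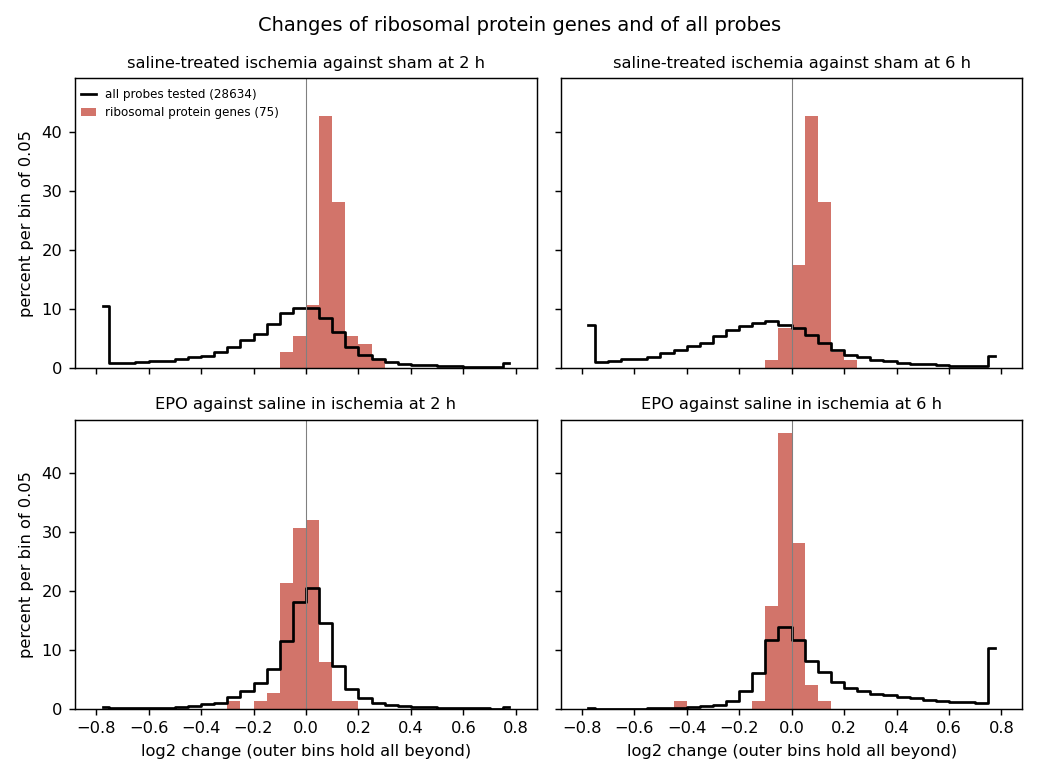
Distribution of log2 differences (x axis, bins of 0.05, outer bins hold all beyond) as percent of features (y axis) for the 75 ribosomal protein genes (red) and all 28634 probes tested (black line) in 4 comparisons. The genes form a narrow peak with a median of 0.09 and 0.08 against sham at 2 and 6 h and of −0.01 between EPO and saline at both times, within the broader spread of all probes.

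EPO-treated ischemia was also set against sham, a comparison that uses the same sham arrays as the one with saline. At 2 h no gene passed, against 1.33% of all probes, and 8 genes had an unadjusted p under 0.05 in limma (Rpl5, Rpl13, Rpl14, Rpl15, Rpl22, Rpl31, Rpl37 and Rps27), 10.7% of those tested, as did 3450 of the 28634 probes. This count ran from 0 to 16 over all settings. The median was 0.06, with 61 estimates above 0 and 14 below. That direction turned with the scaling, to 37 and 38 under quantile normalization and 18 and 57 in the authors' unscaled values. The groups did not overlap for 21 genes, all higher with EPO, against 7.61% of all probes in that direction and 20.4% in either. Rps27 measured 4.97, 4.73 and 4.87 with EPO at 2 h, 0.29 above sham (adjusted p = 0.138), beside 0.27 with saline.

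At 6 h no gene passed between EPO and sham, against 16.1% of all probes, and 3 had an unadjusted p under 0.05 in limma (Rpl41, Rps28 and Rpl37l1), 4% of those tested, against 27.5% of all probes. The median was 0.06, with 66 above 0 and 9 below, and the groups did not overlap for 14 genes (18.7%), all higher with EPO, against 11.8% of all probes in that direction and 31.0% in either. Rpl41 measured 6.23, 6.27 and 6.39 with EPO, 0.17 above sham (adjusted p = 0.0969), beside 0.17 with saline. Rps28 was 0.16 above sham (adjusted p = 0.118), beside 0.19 with saline. For both genes all EPO arrays lay above all sham arrays.

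Between the sham groups no ribosomal protein gene passed, against 0.482% of all probes, and 3 had an unadjusted p under 0.05 in limma (Rpl23, Rps23 and Rps4x), 4% of those tested, against 9.03% of all probes. The estimates at 6 h were lower than at 2 h for 63 of 75 genes. Their median over the 75 was −0.07, against −0.05 for all probes, of which 38.4% were higher at 6 h. The groups did not overlap for 21 genes, all lower at 6 h, against 11.9% of all probes in that direction and 19.2% in either. Rpl23 measured 6.45, 6.49 and 6.54 at 2 h and 6.28, 6.38 and 6.36 at 6 h, a difference of −0.15 ± 0.05 (adjusted p = 0.314). In the interaction of ischemia and time 0 genes passed, against 1.43% of all probes, and 1 gene, Rplp0, had an unadjusted p under 0.05 in limma, against 12.1% of all probes. The next smallest p belonged to Rps28, at 0.13 ± 0.09, and Rps4x, at 0.11 ± 0.08 (adjusted p = 0.698 and 0.733).

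The arrays came from 5 slides, which allow some differences to be read within a slide. On slide 5 every array (EPO at 2 h replicate 1, sham at 6 h replicate 1, saline and EPO at 6 h replicate 3) had a slope above 0.9. These arrays were also scanned on another day than the rest, so slide, scan day and slope cannot be told apart there. Between saline and sham at 2 h the median of the 75 genes was 0.17, 0.05 and 0.02 on 3 slides, the first being the slide with the sham array of lowest spike-in slope. At 6 h it was 0.14 and 0.04 on 2 slides, with 75 of 75 and 49 of 75 genes above 0. Between EPO and saline at 6 h it was −0.12, −0.04 and 0.11 on 3 slides. The differences with sham thus kept their sign on each slide that held both groups, at sizes that varied several-fold, and those with EPO at 6 h did not.

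Large- and small-subunit genes had similar medians. At 2 h the median difference between saline and sham was 0.09 for the 45 large-subunit and 0.08 for the 30 small-subunit genes, and at 6 h it was 0.07 and 0.08. The 21 tested genes with a C-led pyrimidine run at the annotated start had a median of 0.08 at 6 h and the 37 without it 0.07, with 0 called in either class. At 2 h these medians were 0.10 and 0.08. In the sequences shown above, Rps27 and Rplp0 with a run and Rps28 and Rpl41 without one were all among the genes of smallest p.

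The wider translation machinery is given for comparison, as 6 lists that held 165 tested genes. Between saline and sham 19 of the 165 (11.5%) passed limma at 6 h, close to the 11.0% of all probes. At 2 h 0 passed, with 19 (11.5%) at an unadjusted p under 0.05, again close to the 11.6% of all probes. At 6 h 1 of 13 elongation and termination factors rose and 1 fell. Gspt1, the release factor eRF3a, rose by 0.24 ± 0.07 (limma adjusted p = 0.0498), and Eef2k, the kinase that inhibits elongation factor 2, fell by 0.37 ± 0.07 on the log2 scale (adjusted p = 0.00552). The median of that list was 0.08.

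Of 34 initiation factors 3 rose and none fell: Eif1a, which helps to scan for the start codon, by 0.37, Eif2s2, a subunit of the factor that brings initiator tRNA, by 0.30, and Eif3b, a scaffold subunit of eIF3, by 0.28. The list as a whole had a median of 0.02. Of 19 other transcripts with a terminal oligopyrimidine tract 1 rose, Tpt1, the translationally controlled tumour protein, by 0.23 ± 0.06 (adjusted p = 0.0236), and the median was 0.08. Both medians are of the size seen for the ribosomal protein genes or smaller.

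Among 74 ribosome biogenesis genes 6 rose and 3 fell (12.2%, beside 11.0% of all probes), with a median of 0.04. Nip7, needed for maturation of ribosomal RNA, rose by 0.46 ± 0.09 (adjusted p = 0.00444), Ddx21, a nucleolar RNA helicase, rose by 0.31, and Rrp8, a nucleolar methyltransferase, fell by 0.64. Of 26 genes of mTORC1 and S6 kinase signalling 2 rose and 1 fell. Sesn2, a stress-induced inhibitor of mTORC1, rose by 0.81 ± 0.23 (adjusted p = 0.0362), Rps6ka3, a kinase that acts on Rps6, rose by 0.43, and Mtor, the kinase itself, fell by 0.40.

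Of the 10 genes of the MYC network 1 rose, Myc, a transcription factor that drives ribosome production in dividing cells, by 1.52 ± 0.10 (adjusted p = 2.29e-06), and the median of the other list members and Myc together was −0.09. Between EPO and saline 0 genes of these lists passed limma, with 3 at an unadjusted p under 0.05 at 2 h and 1 at 6 h. The ribosomal protein genes had the narrowest range of the lists plotted, from −0.05 to 0.24, while biogenesis genes ran from −0.64 to 0.46.

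**Figure D5:**
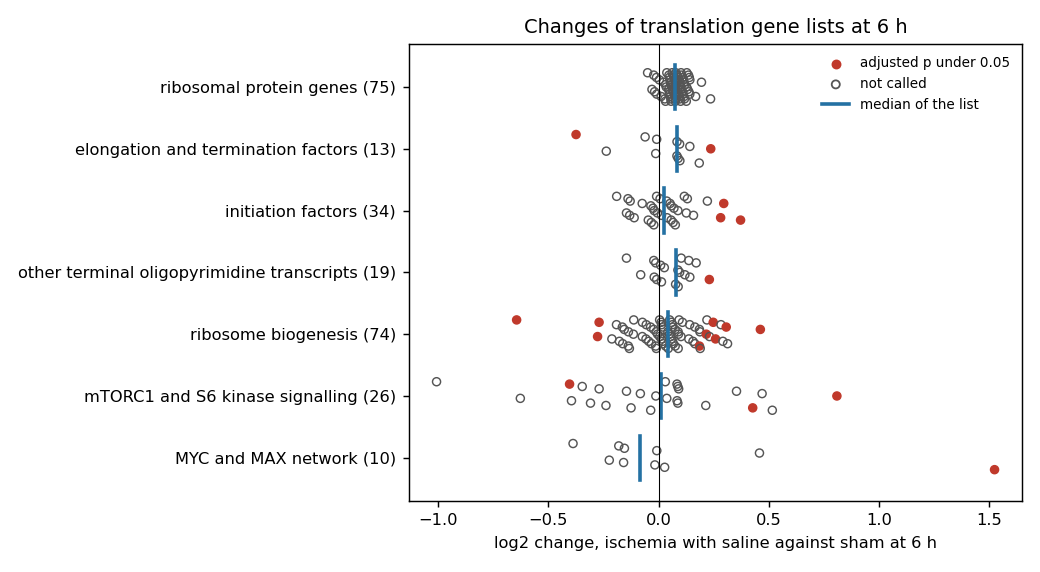
Log2 difference between saline-treated ischemia and sham at 6 h (x axis) for each gene (point) of 7 lists (y axis, genes tested in brackets), filled where the limma adjusted p is under 0.05, with the median of each list as a bar. No ribosomal protein gene is filled, and Myc lies farthest to the right at 1.52.

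Markers of cell types moved alongside: at 6 h 8 of the 89 tested markers rose and 15 fell (25.8%), against 11.0% of all probes. Of 10 neuronal markers 3 fell and none rose, and their summed linear signal (relative to the array's 75th percentile) was 191 to 206 in sham and 176 to 180 with saline. All 10 were above background on all 18 arrays. Of 8 markers of striatal neurons 2 rose, with sums of at most 24.6 in sham and 28.4 to 34.7 with saline. Of the 4 tested neutrophil markers 2 rose (sums 0.257 to 0.453 and 0.941 to 1.05), and of the 11 microglia and macrophage markers 2 rose and 2 fell. Of 10 endothelial markers 4 fell (sums 16.3 to 20.3 in sham and 15.4 to 16.7 with saline). Of 6 pericyte and smooth muscle markers 3 fell and 1 rose (9.08 to 10.6 and 7.83 to 8.01), and of 6 meningeal markers 2 fell (12.6 to 17.1 and 10.8 to 12.1). Oligodendrocyte markers, with 0 of 8 passing in limma and 5 at an unadjusted p under 0.05, had sums of 232 to 258 and 256 to 279. The part of these shifts in the ribosomal protein values was not tested.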

How the data were processed

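Total RNA from 18 samples was labelled with Cy3 and hybridised to 1-colour Agilent arrays, and signals were extracted with Agilent Feature Extraction 9.1.1.1, per the submitters' processing notes. The authors deposited linear processed signal intensity per spot, background-subtracted per the file headers. The authors' deposited value table holds log2 intensity. Recomputed from the spots as an average per probe with no scaling added, its values differed by at most 5.2e-14.

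Here each array's 75th percentile of log2 signal over 43379 non-control spots was subtracted, spots with an outlier mark were left out, and spots of a probe were averaged. Probes well above background on all 3 arrays of at least 1 group, and present on every array, were kept: 28634 of 41012. A group-means model over all 18 arrays (12 residual degrees of freedom) was run in limma 3.58.1 under R 4.3.3. The Benjamini-Hochberg adjustment went over all kept probes, at a threshold of 0.05. The method was tested on simulated data with independent noise for each probe, without any shift shared by an array or slide. Names came from RefSeq by accession (10735 probes), symbol (5571) or synonym (3729), and otherwise from the files. Precision is limited by having 3 arrays a group.

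The members and lists were chosen with earlier results of these data known. Where no gene passed, the 3 of smallest p were named, besides a set list of members by role and up to 3 called genes of smallest p per translation list. Rpl14, Rpl15l2 and other members outside this rule were named after their values were seen. Alternatives covered scaling, background correction, the filter, the probe rule, slide, spike-in slope and each left-out array. Probe sequences were not used here. A few items are not reported here.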

Additional observations from a re-analysis of the deposited data

How the results depend on the processing

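No alternative gave more than 1 ribosomal protein gene past the threshold. Between saline and sham at 6 h, 1 gene (Rps28) passed with slide as a random block (limma adjusted p = 0.0457) and with the 75th percentile taken over probes in place of spots (adjusted p = 0.0315), and the smallest adjusted p of the 75 genes ran from 0.0315 to 0.220 over 20 settings. The percentile over probes and the fit of outlier-marked probes on the arrays left were chosen after seeing the data. At 2 h the smallest adjusted p ran from 0.0918 to 0.582. Leaving out each array in turn gave 0 calls in every comparison. The median of the 75 genes between saline and sham was then 0.06 to 0.11 at 2 h and 0.06 to 0.11 at 6 h, and between EPO and saline −0.04 to 0.02 at 2 h and −0.05 to 0.04 at 6 h. The count over all probes at 6 h split 1372 higher to 1792 lower, 1462 to 1140 under quantile normalization, 849 to 416 in the authors' values and 1578 to 1204 with the percentile over probes. The cause of these shifts was not tested.

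With the replicate number as a block, 0 ribosomal protein genes passed between saline and sham (smallest adjusted p 0.232 at 2 h and 0.109 at 6 h), the medians stayed 0.09 and 0.08, and all-probe calls were 307 and 2789. Same-numbered arrays deviated together in every pair only for EPO and saline at 2 h (correlations 0.887, 0.654 and 0.635). Both first arrays there had a steep spike-in slope and the other arrays of these groups did not, and the cause of the correlations was not tested. In every other comparison of groups some pair deviated in opposite directions, so the replicate numbers do not establish a pairing.

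Of 54 differences of named members, counted over all comparisons, 39 kept their sign in every alternative. The other 15, all between saline and sham, changed sign under some alternative, with the log2 differences given here. With the percentile over probes they were 0.0138 for Rpl3, 0.0224 for Rpl3l and 0.0155 for Rps4x at 2 h, and 0.0141 for Rplp2 at 6 h. With normexp background correction they were 0.0032 for Rpl3l and 0.0305 for Rps4x at 2 h, and −0.0295 for Rpl10l and −0.0311 for Rps18 at 6 h. Under quantile normalization they were −0.0151 for Rpl11, −0.0172 for Rpl19, 0.108 for Rpl3l, −0.00604 for Rpl5, −0.0247 for Rplp1 and −0.0156 for Rps6 at 2 h, and 0.0172 for Rpl3l and −0.00943 for Rps18 at 6 h. With slide as a fixed block they were 0.00533 for Rplp2 at 6 h. With the spike-in slope as a covariate they were −0.0117 for Rpl11 and 0.0668 for Rpl3l at 2 h. In the authors' values they were −0.0344 for Rpl11, −0.0223 for Rpl19, −0.017 for Rpl5 and −0.0108 for Rplp2 at 2 h, and 0.021 for Rplp2 at 6 h. Without the 6 arrays of steep slope they were 0.0852 for Rpl3l at 2 h, and −0.0119 for Rpl10l at 6 h. With single arrays left out they ran from −0.0315 to 0.11 for Rpl19, −0.0604 to 0.0197 for Rps4x, −0.0448 to 0.0179 for Rpl3, −0.0608 to 0.088 for Rpl3l and −0.175 to 0.376 for Rpl10l at 2 h, and from −0.0662 to 0.0403 for Rplp2, −0.0131 to 0.0665 for Rpl3 and −0.132 to 0.181 for Rpl10l at 6 h. Of the 13 genes named from the translation lists, only Myc passed in all 20 alternatives. Gspt1 lost its call in 13, Tpt1 in 10, Sesn2 and Eif2s2 in 9, Eif3b in 6, Rps6ka3 and Rrp8 in 4, Eif1a and Ddx21 in 3, Mtor and Eef2k in 2 and Nip7 in 1, and none changed sign.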
